A study of Mus musculus with 9 samples.

Results

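The genes described here are those that bring folate into cells and hold it there: the carriers Slc19a1 and Slc46a1, the folate receptors Folr1 and Folr2, and the enzymes Fpgs and Ggh, which lengthen and trim the glutamate tail of folate. All probe sets annotated with one of these 6 gene symbols were taken, which gave 9 of the 22690 probe sets on the Affymetrix mouse array. RNA came from the proximal colons of 9 mice, each hybridised to an array of its own, with 3 mutant, 3 heterozygous and 3 wild-type animals for cSHMT, the cytosolic serine hydroxymethyltransferase encoded by Shmt1. The mutation was on a C57Bl/6 background after 10 generations of backcrossing, and every mouse, wild-type included, was weaned at 3 weeks onto AIN-93G lacking folate and choline, so the arrays hold no colon from a folate-replete diet. The mice were 9 weeks old, and their weeks on the diet were 6 by the sample characteristics but 5 by the growth protocol. How the Shmt1 allele was made is not in the labels. The proximal part of the colon was taken whole, so fewer cells of a type and less RNA per cell cannot be told apart in any value below.

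Folate circulates mainly as a reduced monoglutamate. Slc19a1, the reduced folate carrier, exchanges it for organic anions at neutral pH, whereas Slc46a1, the proton-coupled folate transporter, works best in acid and is known for folate absorption in the upper small intestine. Folr1 and Folr2 are membrane-anchored receptors that bind folate tightly and carry it in by endocytosis. Inside the cell Fpgs adds glutamates, which keeps folate from leaving and raises its affinity for many folate enzymes, and Ggh, a lysosomal hydrolase, removes them. The colon also meets folate made by its bacteria.

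Shmt1 itself was lowest in mutant colons, on every one of its probe sets. On the Shmt1 probe set 1425177_at the deposited signal, a linear intensity without unit, was 116.9, 120 and 113.1 in mutant colons, 297.9, 274.4 and 337 in heterozygous colons and 564.3, 575.7 and 644.1 in wild-type colons. On this probe set the genotypes did not overlap. On the others, 1422198_a_at, 1425178_s_at and 1425179_at, all mutant values lay below the rest, but heterozygous and wild-type values overlapped. There the heterozygous mean was 94.3%, 76.9% and 84.7% of the wild-type mean. Of these, 1422198_a_at was too dim to be tested, with mean signals of 5.9 in mutant, 22.8 in heterozygous and 24.1 in wild-type colons. Markers of absorptive colonocytes were present in all 9 arrays: the summed signal of 9 of the 10 marker genes lay between 31093.4 and 39507.8 in mutant, 30196.1 and 36593.9 in heterozygous and 33007.9 and 38262 in wild-type colons. Lower signal toward the 5' end was read from beta-actin as the 3' signal over the 5' signal. It was 4.84, 3.75 and 2.73 in mutant 1, 2 and 3 and 4.45, 3.05 and 2.57 in heterozygous 1, 2 and 3. In wild-type 1, 2 and 3 it was 5.02, 3.15 and 2.52. This actin ratio was thus highest in the array numbered 1 and lowest in the array numbered 3 of each genotype.

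Of the 9 probe sets, 6 were bright enough to be tested, those of Slc19a1 (2 of 3), Slc46a1 (both), Folr2 and Ggh. None of the 6 passed an adjusted p of 0.05 in any comparison (limma on quantile-normalized log2(signal + 16), Benjamini-Hochberg adjustment over 13576 probe sets). In mutant against wild-type 0.0221% of all probe sets tested passed, in heterozygous against wild-type 0% and in mutant against heterozygous 0.0221%. Counting an unadjusted p under 0.05, there was 1 of 6 in mutant against wild-type, 0 of 6 in heterozygous against wild-type and 1 of 6 in mutant against heterozygous, Ggh both times, where 3.84%, 8.01% and 7.56% of all probe sets tested had such a p. The median log2 fold change of the 6 was 0.07, 0.02 and 0.02 in these comparisons, against 0.00364, -0.00441 and 0.00129 over all probe sets tested. In the F test for any difference among the 3 genotypes, which 0.0295% of all probe sets tested passed, the adjusted p of the 6 lay between 0.772 for Ggh and 0.997 for a Slc19a1 probe set. The comparisons share arrays, so they are not independent of each other.

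**Figure D1:**
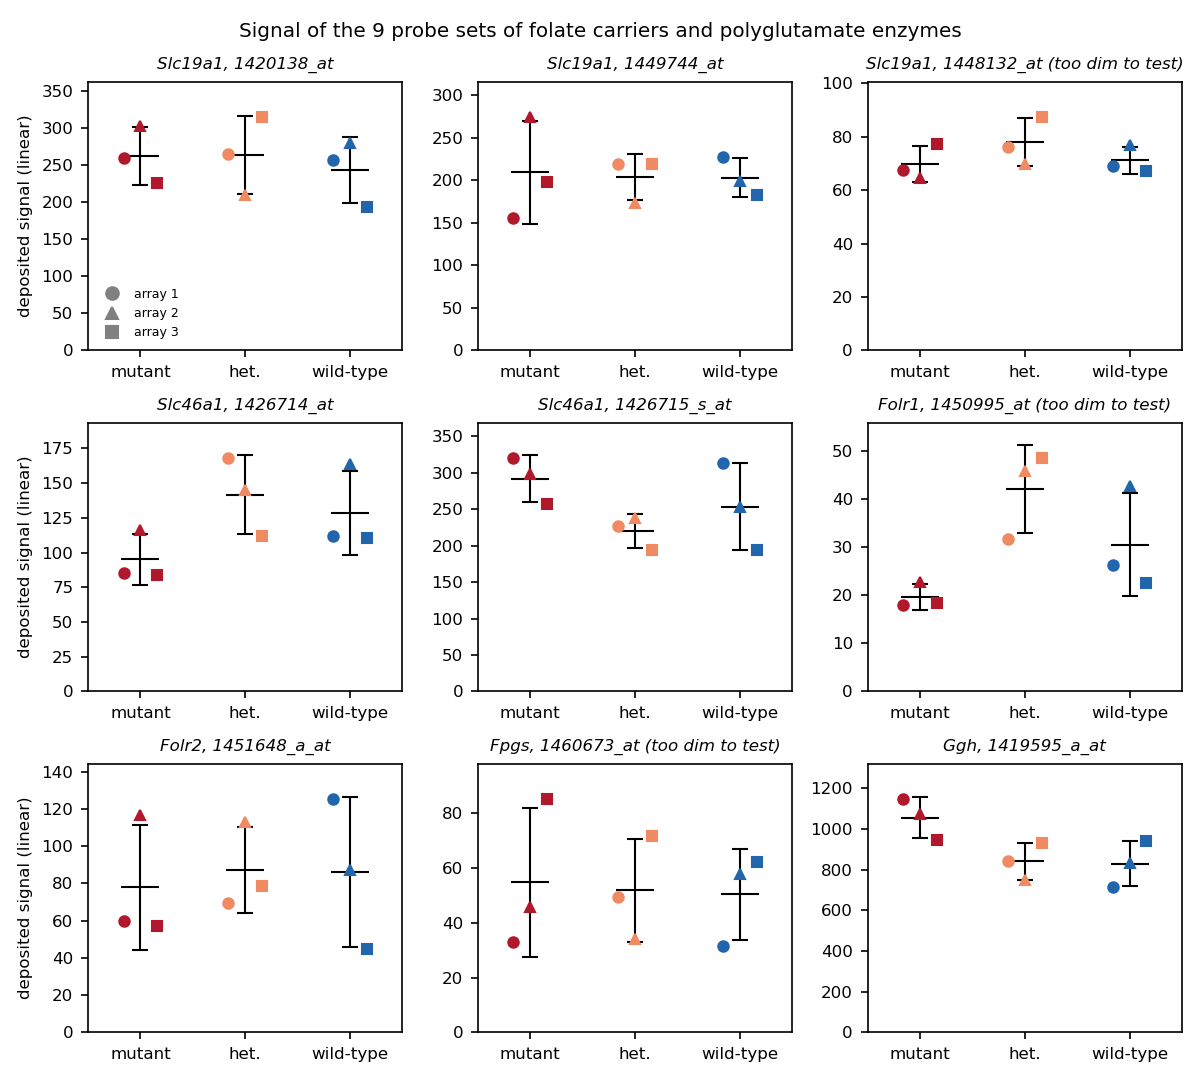
Deposited linear signal of each of the 9 probe sets in mutant, heterozygous (het.) and wild-type colons; each point is 1 array (circle, triangle and square for arrays 1, 2 and 3), the bar is the mean and the whisker the SD of 3. The Ggh points of all 3 mutant colons lie above those of the heterozygous colons, the Folr1 points of all 3 mutant colons lie below them, and on the 3 Slc19a1 probe sets the genotypes overlap.

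Slc19a1 showed no separation of the 3 genotypes. On its brightest probe set, 1420138_at, the signal was 259.2, 303.1 and 225.1 in mutant colons, 264.4, 209.9 and 315.2 in heterozygous colons and 256.2, 279.7 and 193.3 in wild-type colons. Every genotype spanned nearly the same range, with means of 262.5 ± 39.1, 263.2 ± 52.7 and 243.1 ± 44.7 (SD, n = 3) in mutant, heterozygous and wild-type. The fold change was 1.08 in mutant against wild-type, with a 95% interval of 0.782 to 1.49, and 1.07 in heterozygous against wild-type, with an interval of 0.777 to 1.48 (limma, adjusted p = 0.998 and 0.932). With 3 arrays a genotype, the data were compatible with any fold change within these intervals.

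The genotypes overlapped on the other Slc19a1 probe sets too. On 1449744_at the signal was 155.2, 274.8 and 197.7 in mutant, 218.5, 173.2 and 219.6 in heterozygous and 227.8, 198.9 and 182.2 in wild-type colons. The mutant colons held both the lowest and the highest of these 9 values, and mutant against wild-type gave a log2 fold change of 0.02 (SE 0.203). The probe set 1448132_at was dimmer and read 64.4 to 77.3 in mutant, 69.9 to 87.5 in heterozygous and 67.3 to 76.9 in wild-type colons. Its mean of 72.9 over the 9 arrays lay just under the brightness limit of 75.5, so it was not among the 6 tested. Fitted without that limit, mutant against wild-type was -0.01 on the log2 scale (SE 0.15, adjusted p = 0.998 by limma). Across the 9 arrays the 3 probe sets went up and down partly together. Pearson r was 0.71 and 0.69 between 1420138_at and the others and 0.34 between those others. These r-values are a description, since the 3 probe sets of an array read the same RNA.

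Slc46a1 was read by a pair of probe sets whose genotype means went opposite ways. On 1426714_at the signal was 85.2, 116.1 and 83.9 in mutant, 168.4, 144.8 and 111.6 in heterozygous and 112, 163.5 and 110.4 in wild-type colons. The mutant mean was the lowest, at 95.1 ± 18.2 against 141.6 ± 28.5 in heterozygous and 128.6 ± 30.2 in wild-type colons, but mutant 2 reached the lower heterozygous and wild-type values. By limma, with an SE of 0.219, the difference on the log2 scale was -0.36 in mutant against wild-type (adjusted p = 0.998; unadjusted p = 0.125). In mutant against heterozygous it was -0.46 (adjusted p = 0.673; unadjusted p = 0.0596). Single arrays moved the second value: it was -0.27 without heterozygous 1 and -0.65 without heterozygous 3. The first was -0.24 without wild-type 2 and -0.23 without mutant 3.

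On 1426715_s_at, whose suffix in Affymetrix naming marks probes that can match more than 1 transcript, the signal was 321, 298.5 and 257 in mutant, 227.7, 237.9 and 193.8 in heterozygous and 313.7, 252.6 and 194.6 in wild-type colons. Here the mutant mean was the highest, and all 3 mutant colons lay above the heterozygous ones on the deposited scale, while wild-type colons spanned both. After normalization the mutant and heterozygous values overlapped. By limma, mutant against wild-type gave a log2 fold change of 0.21 (SE 0.224, adjusted p = 0.998), heterozygous against wild-type one of -0.19 (adjusted p = 0.853) and mutant against heterozygous one of 0.41 (adjusted p = 0.695). This probe set was highest in the array numbered 1 of the mutant and wild-type genotypes and lowest in the array numbered 3 of all 3 genotypes, where the actin ratio was also lowest. With the actin ratio as a covariate the value in mutant against heterozygous was 0.29, and it was 0.27 without mutant 1 and 0.28 without heterozygous 3. In mutant against wild-type it was 0.44 without wild-type 1, 0.08 without mutant 1, 0.35 without mutant 3 and -0.00065 without wild-type 3.

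Because the 2 probe sets disagree, their ratio within each array was taken, a measure chosen after their values were seen and not tested. The signal of 1426715_s_at divided by that of 1426714_at was 3.77, 2.57 and 3.06 in mutant colons, 1.35, 1.64 and 1.74 in heterozygous colons and 2.8, 1.54 and 1.76 in wild-type colons. All mutant ratios exceeded all heterozygous ones, and wild-type 1, the array with the highest actin ratio, fell among the mutant values. The ratio restates how the 2 probe sets differ across the arrays, and neither of them passed in any comparison. It does not show which of them follows the Slc46a1 transcript. Whether what the actin ratio reads has a part in these ratios was not tested. Slc46a1 lies on chromosome 11, as Shmt1 does, with 17.7 Mb between the nearest RefSeq promoter windows of the 2 genes (GRCm38.p6); no other gene of the 6 lies on that chromosome.

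**Figure D2:**
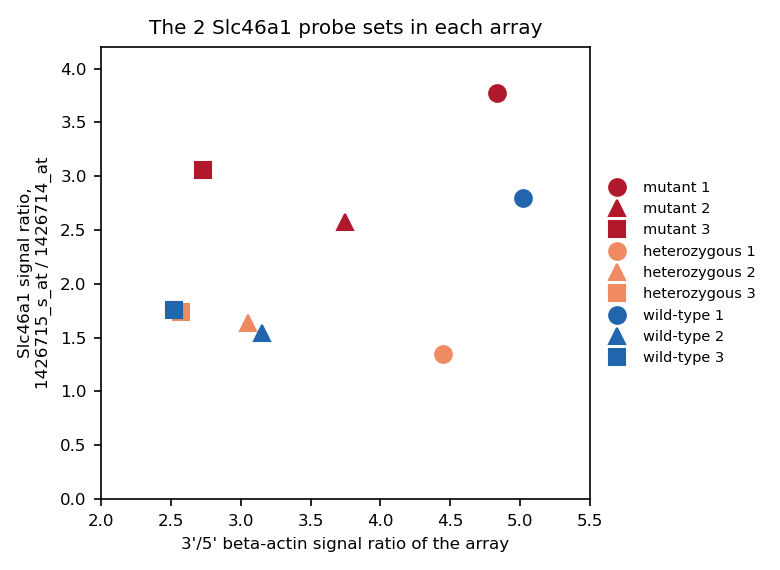
Each point is 1 array: the horizontal axis is its beta-actin signal at 3' over that at 5', the vertical axis its ratio of the Slc46a1 probe set 1426715_s_at to 1426714_at, coloured by genotype. Mutant arrays lie between 2.57 and 3.77, heterozygous arrays between 1.35 and 1.74, and the wild-type array with the highest actin ratio, 5.02, lies at 2.8.

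The promoter windows of the 2 carriers are shown to let their composition be read, since these arrays measure transcripts and not promoter activity. RefSeq windows of 300 bases (GRCm38.p6, from 250 bases before the start to 50 after it) were at hand for 4 of the 6 genes, and the GC box GGGCGG, read on both strands, is in capitals.
Slc19a1, chr10:77032489-77032788, plus strand: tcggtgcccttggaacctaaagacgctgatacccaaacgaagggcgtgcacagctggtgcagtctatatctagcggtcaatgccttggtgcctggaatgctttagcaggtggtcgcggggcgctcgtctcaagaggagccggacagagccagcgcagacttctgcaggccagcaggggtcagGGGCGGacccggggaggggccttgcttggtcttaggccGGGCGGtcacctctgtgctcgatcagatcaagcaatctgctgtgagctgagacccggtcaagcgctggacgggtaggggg
Slc46a1, chr11:78465451-78465750, plus strand: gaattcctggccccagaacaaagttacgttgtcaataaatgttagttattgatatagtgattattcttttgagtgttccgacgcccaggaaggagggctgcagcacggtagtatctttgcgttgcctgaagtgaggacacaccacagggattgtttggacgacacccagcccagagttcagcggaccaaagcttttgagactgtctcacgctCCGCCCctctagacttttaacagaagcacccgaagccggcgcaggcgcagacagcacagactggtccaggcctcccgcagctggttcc
The Slc19a1 window holds 2 GC boxes and 19 CpG pairs at a GC content of 62.3%, and the Slc46a1 window 1 GC box and 14 CpG pairs at 53%. The Fpgs window holds 3 GC boxes and 19 CpG pairs at 61.3%, and another Slc19a1 start has no GC box and 21 CpG pairs. The 2 Folr2 windows are poorer, with 5 and 3 CpG pairs at 45.3% and 47.7% GC and no GC box. Of all 32851 windows 35.7% hold a GC box, the median GC content is 52.7% and the median number of CpG pairs is 7. None of the 6 windows holds the E-box CACGTG (7.15% of all windows), the NRF1 core GCATGCGC (2.71%) or the TATA box TATAAA (13.6%), and the CCAAT box CCAAT (37.4%) is found in that of Fpgs alone, at 2 places. A match of letters is not a sign that a factor binds there.

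Folr1 and Folr2 are neighbours on chromosome 7, and both were dim. Folr1, on 1450995_at, read 17.9, 22.8 and 18.4 in mutant, 31.6, 45.8 and 48.6 in heterozygous and 26.3, 42.6 and 22.6 in wild-type colons. The 27 probe sets for Bacillus controls, which have no target in mouse RNA, reached at most 10.9, so Folr1 lay little above background in mutant colons. The mutant mean of 19.7 ± 2.7 was 46.9% of the heterozygous mean of 42 ± 9.11 and 64.6% of the wild-type mean of 30.5 ± 10.6 (SD, n = 3). Mutant and heterozygous values did not overlap, with mutant lower, as on 5.41% of all 22626 probe sets when the brightness limit is not applied, whereas mutant 2 exceeded wild-type 3. Folr1 was under the brightness limit. Fitted without that limit, its log2 fold change was -0.63 (SE 0.173, unadjusted p = 0.00403) in mutant against heterozygous, which did not pass over all probe sets (limma, adjusted p = 0.534), and -0.35 (SE 0.173, adjusted p = 0.998) in mutant against wild-type. The added 16 makes such fold changes of a dim probe set smaller than those of the signals themselves.

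Folr2, known as a marker of resident macrophages, varied more within genotypes than between them. Its signal on 1451648_a_at was 59.9, 116.8 and 57.3 in mutant, 69.4, 113.2 and 78.9 in heterozygous and 125.6, 87.5 and 45 in wild-type colons. Wild-type colons thus held both the highest and the lowest value. Mutant against wild-type gave a log2 fold change of -0.09 (SE 0.344, 95% interval -0.84 to 0.67, adjusted p = 0.998 by limma), and heterozygous against wild-type one of 0.04 (adjusted p = 0.988). Its SE was the largest of the 6 probe sets tested. Beside it, the summed signal of 13 of the 14 macrophage markers was 11079.4, 9772.2 and 7926.7 in mutant 1, 2 and 3, 9508.9, 10906.1 and 10727.9 in heterozygous 1, 2 and 3, and 13225.4, 10199.9 and 8947.2 in wild-type 1, 2 and 3. None of those markers was at background. In wild-type and heterozygous colons the array with the most macrophage signal also had the most Folr2 and the array with the least had the least; in mutant colons the highest Folr2 value was in mutant 2 and the highest macrophage sum in mutant 1. In wild-type colons C1qb, Csf1r, Adgre1, Cd68, Cd163, Lyve1, Lyz2 and Tyrobp had the order of the macrophage sum. C1qa, C1qc, Mrc1 and Aif1 were instead lowest in wild-type 1, and Cd14 was highest in wild-type 2. C1qb gave the largest part of the sum, 5581.5 in wild-type 1. The goblet cell sum had the same wild-type order, at 51955.2, 39778.7 and 39405.5. The part of macrophage number in the Folr2 signal was not tested.

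Fpgs, the enzyme that adds glutamates, was too dim to be tested. On 1460673_at its signal was 33.2, 45.9 and 85.4 in mutant, 49.4, 34.2 and 71.9 in heterozygous and 31.4, 57.7 and 62.3 in wild-type colons. The means were close, at 54.8 ± 27.2, 51.8 ± 19 and 50.5 ± 16.7 (SD, n = 3), and each genotype had its highest value in the array numbered 3, the one with the lowest actin ratio. Within genotypes the spread was thus much wider than the distance between the means. Fitted without the brightness limit, the fold change in mutant against wild-type was 1.04, with a 95% interval of 0.708 to 1.53 (limma, adjusted p = 0.998). A moderate change of Fpgs could not be detected in these data.

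Ggh, which trims the glutamate tail, was the only one of the 6 genes with an unadjusted p under 0.05 among the probe sets tested. On 1419595_a_at the signal was 1148.9, 1072.1 and 945.5 in mutant, 842.6, 750.2 and 929.3 in heterozygous and 714.7, 834.8 and 939 in wild-type colons. The 3 mutant colons were the 3 highest of the 9, but the margin was narrow, 945.5 in mutant 3 against 939 in wild-type 3, and after normalization the mutant and wild-type values overlapped. Mutant colons averaged 1055.5 ± 102.7, heterozygous colons 840.7 ± 89.6 and wild-type colons 829.5 ± 112.2 (SD, n = 3), so that the mutant mean was 127.2% and the heterozygous mean 101.4% of the wild-type mean. The order of the means was mutant, heterozygous, wild-type, and the neighbours heterozygous and wild-type did not differ beyond their spread.

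The fold change of Ggh was 1.25 in mutant against wild-type, with a 95% interval of 1.03 to 1.53 (limma, unadjusted p = 0.0308, adjusted p = 0.998). It was 1.25 in mutant against heterozygous as well, with an interval of 1.02 to 1.53 (unadjusted p = 0.0314, adjusted p = 0.649), so neither passed. In heterozygous against wild-type the interval of the fold change was 0.819 to 1.22. The log2 fold change in mutant against wild-type kept its sign when any single array was left out, with values between 0.24 and 0.42, and without the 3 arrays numbered 1 it was 0.18 (unadjusted p = 0.273 by limma). On the normalized scale Ggh was also the only one of the 6 probe sets whose mutant and heterozygous values did not overlap, with mutant higher; 6.35% of all probe sets tested were separated in that direction. Counted on the deposited signals, 2 of the 6 were separated that way, Ggh and Slc46a1 on 1426715_s_at, where 5.75% of all probe sets tested were. In mutant against wild-type it was 1 of 6, Ggh, against 4.04%.

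**Figure D3:**
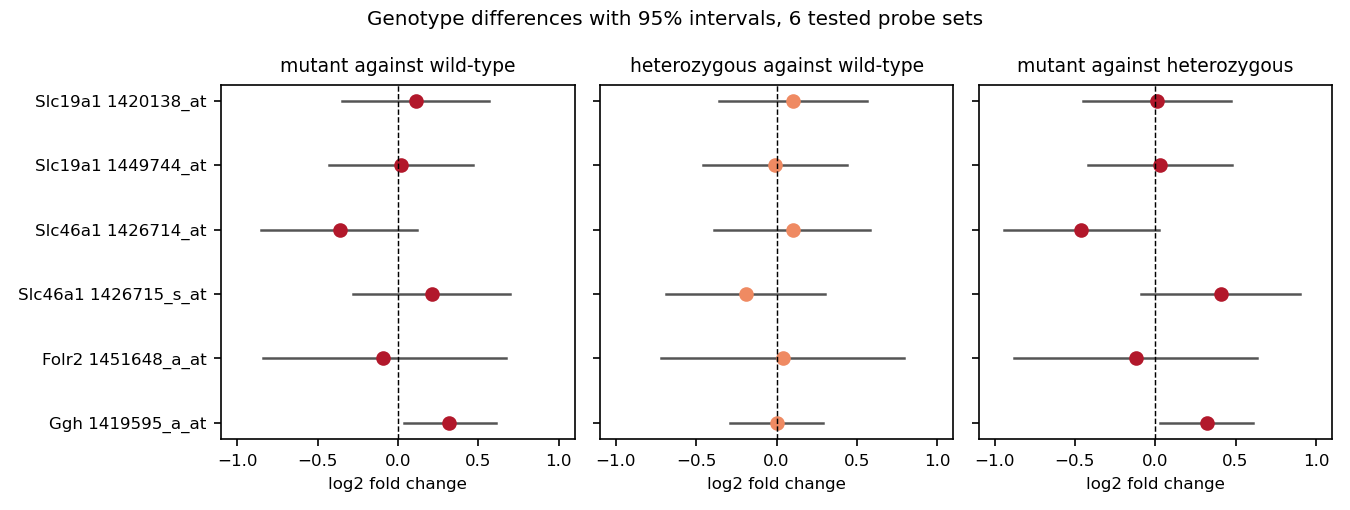
Log2 fold changes (points) with 95% intervals (lines) of the 6 tested probe sets in 3 comparisons, from limma on the normalized log2 scale. The intervals of Ggh in mutant against wild-type and mutant against heterozygous start at 0.04 and 0.03, and every other interval includes 0.

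Marker lists of other cell types that separated mutant from heterozygous colons, as these Ggh and Folr1 values did, were smooth muscle and exocrine pancreas. The summed signal of 8 of 8 smooth muscle markers, none of them at background, was 23824.5 to 28677.3 in mutant, 21574.9 to 23709.3 in heterozygous and 26484.7 to 27061.3 in wild-type colons. The margin between mutant and heterozygous sums was narrow. Of the single markers, Cnn1 and Smtn separated these genotypes, whereas Acta2, Myh11, Tagln, Des, Actg2 and Lmod1 overlapped. The summed signal of 4 of the 6 exocrine pancreas markers was 480.9 to 546.8 in mutant, 360.5 to 417.3 in heterozygous and 382.6 to 514.8 in wild-type colons. It was nearly all Cela1, and Cpa1 and Prss2, which define the tissue, were at background. Their part in the Ggh and Folr1 values was not tested. Smooth muscle also separated heterozygous from wild-type colons, with heterozygous lower, and 2 more lists did so in the same direction, a comparison in which no probe set of the 6 genes passed. The sum of 8 of 8 fibroblast and matrix markers was 12823.3 to 14666.2 in mutant, 11674.6 to 13555 in heterozygous and 14546.5 to 14881 in wild-type colons. That of 4 of the 6 mesothelium markers was 6145.3 to 7348.8 in mutant, 6082.1 to 6632 in heterozygous and 6779.4 to 7819 in wild-type colons. The mesothelium sum was nearly all Krt19, with a mean of 6316.3 over the 9 arrays. Upk3b, Wt1 and Msln had means of 274.5, 102.9 and 33.5, so this sum is mainly a reading of 1 gene. No smooth muscle, fibroblast and matrix or mesothelium marker on the array was at background, and no marker list separated mutant from wild-type colons.

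No other gene on a fixed list of folate transport was called either. Of 14 such genes 12 were named on the array and 6 were bright enough to be tested, and in each of the 3 comparisons none passed, higher or lower. The median log2 fold change was 0.08 in mutant against wild-type, -0.02 in heterozygous against wild-type and 0.16 in mutant against heterozygous. In mutant against wild-type the smallest unadjusted p-values belonged to the efflux pumps Abcc3 (log2 fold change 0.10, unadjusted p = 0.175) and Abcc5 (0.36, unadjusted p = 0.282), followed by Cubn, which encodes the endocytic receptor cubilin (0.16), and the efflux pump Abcg2 (0.06). In heterozygous against wild-type they belonged to Abcc1, another efflux pump (-0.18, unadjusted p = 0.157), Cubn (0.51, unadjusted p = 0.168), Abcg2 (-0.14) and the thiamine transporter gene Slc19a2 (0.06), of the same family as Slc19a1. In mutant against heterozygous all 4 were pumps, Abcc3 (0.13, unadjusted p = 0.0971), Abcc1 (0.19), Abcg2 (0.20) and Abcc5 (0.37), and their adjusted p-values by limma were at least 0.695. Folh1, whose product cuts dietary folate polyglutamates at the brush border, had mean signals of 3.3 in mutant, 2.03 in heterozygous and 2.07 in wild-type colons, within the range of the Bacillus controls.

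Of 23 genes of enzymes that use folate, 14 were named on the array and 9 were tested, and on their leading probe sets none passed in either direction in any comparison. The median log2 fold change was -0.09 in mutant against wild-type, -0.08 in heterozygous against wild-type and -0.06 in mutant against heterozygous. In mutant against wild-type Shmt1 led (-0.89, unadjusted p = 0.000351, adjusted p = 0.596 by limma), read on its leading probe set 1425179_at. There the mutant mean was 52.4% of the wild-type mean, whereas on 1425177_at, also bright enough to be tested, it was 19.6%. Aldh1l1, which oxidizes formyltetrahydrofolate (-0.36), Gart, an enzyme of purine synthesis (-0.21), and Mtfmt, which formylates the mitochondrial initiator tRNA (-0.20), came next, with unadjusted p-values of 0.131, 0.132 and 0.134. In heterozygous against wild-type the order was Shmt1 (-0.25), Aldh1l1 (-0.30), Gart (-0.13) and the mitochondrial dehydrogenase gene Mthfd2 (-0.17). In mutant against heterozygous it was Shmt1 (-0.64, unadjusted p = 0.00392), Mthfd1 (0.18), Mtrr, which reactivates methionine synthase (-0.16), and Mthfd2 (0.18). Apart from Shmt1, no tested gene of the 2 lists had an unadjusted p under 0.05 in any comparison.

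**Figure D4:**
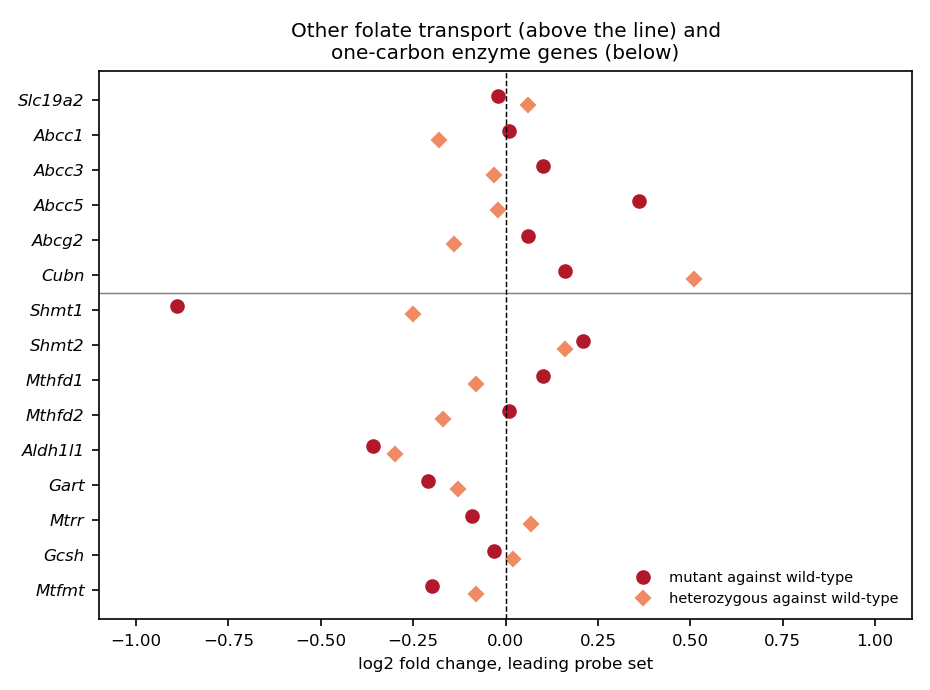
Log2 fold changes of the leading probe set of 6 other folate transport genes (above the line) and 9 folate enzyme genes (below it), with circles for mutant against wild-type and diamonds for heterozygous against wild-type. Shmt1 lies at -0.89 and -0.25, and Cubn has the largest heterozygous value, 0.51.

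The genes whose values across the 9 arrays were most like those of each tested probe set differed from one to the next. For Ggh they were Pign, Mmp14 and Klhl13, with Pearson r of 0.95, 0.92 and 0.92. For Folr2 they were Ulk2, Ldhb and Htra3 (0.95, 0.94 and 0.94). For Slc46a1 on 1426714_at they were Wdfy2, Per3 and Slc13a1 (0.96, 0.93 and 0.92), and on 1426715_s_at Tm2d2, Tmem222 and Ergic3 (0.99, 0.98 and 0.97), so the probe sets of this gene shared none of them. For Slc19a1 they were Cox18, Abhd10 and Zfp280d on 1420138_at (0.95, 0.94 and 0.94) and Rnaseh1, Acaa1b and Jkamp on 1449744_at (0.96 each). These are the highest of 12489 candidates over 9 arrays, and are given as a description. All values of an array share its depth of labelling and RNA state. The arrays differed in actin ratio, from 2.52 in wild-type 3 to 5.02 in wild-type 1. When the genotype means were removed first, none of the 3 genes stayed for Ggh, Slc46a1 on 1426714_at and Slc19a1 on 1420138_at, and 1 of 3 stayed for each of the others.

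Between the genes, Pearson r over the 9 arrays ranged from -0.65 to 0.66. At the ends of this range, Ggh and Folr1 went opposite ways (-0.65), as did Folr2 and Fpgs (-0.65), while Slc46a1 on 1426714_at and Folr1 went together (0.66). Each of these pairs holds Folr1 or Fpgs, which were too dim to be tested. The genotype means were not removed first, and the r-values are given as a description. Folr1 and Folr2, the adjacent receptor genes, had an r of 0.45. Fpgs and Ggh, the opposing enzymes of the glutamate tail, had an r of 0.10.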

How the data were processed

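The values the authors deposited are intensities, 1 linear signal per probe set and array, made with GCOS, per the submitters' processing notes, whose version is not given in the sources used here; neither is its scaling. About 50 ng of RNA per colon was amplified with a NuGEN Ovation kit, per the labels' protocols. The log2 medians of the arrays spread over 0.294, more than the limit of 0.2, so log2(signal + 16) was quantile normalized. The 64 control probe sets were left out, and probe sets under the 40th percentile of the mean over all arrays were not tested, which left 13576 of 22626.

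All 9 arrays entered 1 limma fit (version 3.58.1, R 4.3.3; lmFit, eBayes with a trend, no covariate), with Benjamini-Hochberg adjustment over all probe sets tested; the fit was tested on simulated data. Intervals are 95% intervals of that fit. The number of arrays, 3 a genotype, limits the precision; the labels call them biological replicates. Gene symbols are those of the platform annotation and may be out of date.

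Text values are deposited signals, and fold changes are on the normalized log2 scale. Named are every probe set of the 6 genes; Shmt1; from 2 pathway lists, per comparison, genes that pass and up to 4 with the smallest p, on the gene's brightest probe set; and, per tested probe set, the 3 most correlated genes. The 6 genes and all lists were chosen with earlier results of these data known. Of 15 marker lists, those that separated genotypes or bear on a gene are given. Alternatives were other normalizations, filters, pseudocounts (1 and 64) and variance models, array weights, the replicate number as a block, the actin ratio as covariate and arrays left out.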

Additional observations from a re-analysis of the deposited data

How the results depend on the processing

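No probe set of the 6 genes passed an adjusted p of 0.05 in any of the 363 other fits of the 18 results (6 probe sets in 3 comparisons); the lowest adjusted p was 0.167, for Ggh in mutant against wild-type with array weights. In these fits 5 of the 18 log2 fold changes never changed sign: both mutant comparisons of Ggh and of Slc46a1 on 1426714_at, and mutant against heterozygous of Slc46a1 on 1426715_s_at. Ggh ranged from 0.18 to 0.37 in mutant against wild-type and from 0.27 to 0.39 in mutant against heterozygous, arrays left out singly apart. Slc46a1 on 1426714_at in mutant against heterozygous was -0.29 without the 3 arrays numbered 1.

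Sign changes were mostly of small values, none of them called, and their cause was not tested. The largest were of Folr2, which was -0.34 in heterozygous against wild-type without wild-type 3 and 0.34 in the fit given last below. In heterozygous against wild-type Ggh was -0.01 with median centring and with array weights and -0.09 without the 3 arrays numbered 1; Slc19a1 on 1420138_at was -0.08 with array weights; Slc46a1 on 1426714_at was -0.17 with array weights and -0.08 without the 3 arrays numbered 1. Slc19a1 on 1449744_at was 0.0032 on the deposited signals, 0.01 with array weights and with the actin covariate, and 0.04 without the 3 arrays numbered 1. With the actin covariate it was -0.03 in mutant against heterozygous and -0.02 in mutant against wild-type, and 1420138_at was -0.06 in mutant against heterozygous. Folr2 in mutant against wild-type was 0.01 with array weights and 0.34 without the 3 arrays numbered 1.

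Leaving out single arrays, the values in heterozygous against wild-type ranged from -0.05 to 0.09 for Ggh, -0.09 to 0.27 and -0.12 to 0.15 for Slc19a1 on 1420138_at and 1449744_at, -0.09 to 0.29 and -0.41 to 0.03 for Slc46a1 on 1426714_at and 1426715_s_at, and -0.34 to 0.39 for Folr2. In mutant against heterozygous they ranged from 0.23 to 0.42 for Ggh, -0.65 to -0.27 and 0.27 to 0.55 for Slc46a1 on 1426714_at and 1426715_s_at, -0.16 to 0.17 and -0.16 to 0.14 for the Slc19a1 probe sets above and -0.39 to 0.08 for Folr2. In mutant against wild-type they ranged from -0.08 to 0.27 and -0.17 to 0.18 for Slc19a1, -0.5 to -0.23 and -0.00065 to 0.44 for Slc46a1 on 1426714_at and 1426715_s_at and -0.46 to 0.27 for Folr2.

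Of all probe sets tested, 3 passed in mutant against wild-type, 0 in heterozygous against wild-type (limma; 1087 at an unadjusted p under 0.05), 3 in mutant against heterozygous and 4 in the F test. With array weights these became 9, 134, 4 and 50. Without the 3 arrays numbered 1, 9 passed in mutant against wild-type and 9 in the F test, and 5 in mutant against wild-type with the actin covariate. With only the 2 genotypes compared, 5 passed in mutant against heterozygous. On the deposited signals and with no filter, 2 passed the F test. Single arrays left out gave 2 to 4 in mutant against wild-type, 0 to 3 in heterozygous against wild-type, 1 to 7 in mutant against heterozygous and 2 to 5 in the F test.

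Array numbers are shared between genotypes, and the arrays numbered 1 and 3 were partly alike in their deviations from the genotype means. Same-numbered correlations ran from -0.0589 to 0.463, highest for wild-type 3 with mutant 3 and, at 0.409, with heterozygous 3. Wild-type 1 went with heterozygous 1 (0.313) and mutant 1 (0.292) but against mutant 3 (-0.507). Heterozygous 1 and mutant 1 were not alike (-0.0503). Nor were the arrays numbered 2, where wild-type 2 was more like mutant 3 (0.126) than mutant 2 (0.0124). Differently numbered arrays reached 0.275, in wild-type 1 with mutant 2. With the replicate number as a block 5, 0, 8 and 10 probe sets passed in the 3 comparisons and the F test, none of them of the 6 genes. In the 3 comparisons 983, 1681 and 1767 probe sets then had an unadjusted p under 0.05 by limma. Without the block these were 521, 1087 and 1027. At the stricter filter only Ggh was still tested. Fpgs, Folr1 and Slc19a1 on 1448132_at are limited by signals near or under the brightness limit, and their adjusted p-values without that limit were all at least 0.534.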
